A study of Mus musculus with 4 samples.

Results

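Spots that held Cd8a transcripts but lacked part of a macrophage signature were examined in 4 spatial transcriptome sections of MC38 tumors. Cd8a encodes a chain of the CD8 coreceptor that marks cytotoxic T cells. A spot counted as outside the full macrophage niche when at least 1 of Adgre1, Itgam, Cd68 and Cxcl9 was at 0 UMIs (UMIs, the molecular tags that let each captured RNA molecule be counted once). Among these spots, a positive spot had Cd8a at 1 UMI or more, and a negative spot had Cd8a, Cd8b1 and Cd3e all at 0. The rule found 1057 positive spots among the 11947 spots under tissue. They were compared within each section with negative spots drawn to the same spot depth, 2308 in all, and 840 further Cd8a spots that held all 4 macrophage markers served as the closest counterpart. The spots were chosen by their measured counts of these 7 genes, which are therefore described without a test, and every other gene was tested.

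The sections came from tumors of the MC38 colon carcinoma line, which is of C57BL/6 origin, implanted subcutaneously in F1 females of 8 to 12 weeks of age. CC075F1 hosts (C57BL/6J × CC075/UncJ), which the study classes as responders to anti-PD-1, gave 2 sections, and CC080F1 hosts (C57BL/6J × CC080/TauUncJ), classed as non-responders, gave the other 2. When the tumors measured 75 to 110 mm3, all 4 mice were given 1 dose (200 µg) of an isotype control antibody and were sampled 48 h afterwards, so no anti-PD-1 treated tumor enters these comparisons. Each section is 1 tumor of 1 mouse, and all tumors carry the same cell line. Section totals ran from 82594649 to 146460975 UMIs. CC075F1 replicate 2 was the deepest section and the one with the most skeletal muscle transcripts, at 329 CPM (the UMIs of a gene per 1000000 UMIs of the summed spots) summed over 10 muscle genes in its matched negative spots against 4.91 to 15.8 CPM in the other 3 sections. Values without it are given beside the calls that it decides. A spot covers several cells, so fewer cells of a type and less RNA per cell cannot be told apart.

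CD8 T cells recognise peptides on MHC class I through the T cell receptor, whose signal passes through the CD3 chains and the kinase LCK, and they kill with granzymes and perforin. Their entry into a tumor runs through blood vessels, and it is guided by chemokines such as CXCL9 and CXCL10, which macrophages and other cells make in response to IFN-γ. Regions far from perfused vessels become hypoxic. There the HIF transcription factors raise the genes of glucose uptake, glycolysis and VEGF, and T cells are often sparse.

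The share of outside spots that were positive was 28.0% in CC075F1 replicate 1 (95% exact binomial interval 25.9% to 30.2%, counting error only), 22.6% in CC075F1 replicate 2 (20.7% to 24.7%), 6.86% in CC080F1 replicate 1 (5.76% to 8.10%) and 2.80% in CC080F1 replicate 2 (2.11% to 3.64%). These shares correspond to 480, 394, 129 and 54 spots. Of the Cd8a spots, 59.1%, 51.7%, 61.7% and 47.4% lay outside the full niche in the same order, below the 63.2%, 53.2%, 67.5% and 60.8% of all spots that did. Among spots inside the niche, 33.3%, 24.0%, 8.83% and 4.82% held Cd8a, above the share outside in each section. These shares were not matched on spot depth, and a deeper spot is more likely to show any given gene. Cd8a spots inside had medians of 36600, 48540, 38460 and 39850 UMIs, against 30950, 34760, 35360 and 31860 UMIs for those outside. The part of depth in the shares was not tested. A single Cd8a UMI carried 77.1% and 78.2% of the positive spots of the CC075F1 sections and 92.2% and 90.7% of those of CC080F1, and the highest count in any spot was 5. Positive spots were deeper than negative spots before matching, with medians of 30950 against 25520 UMIs in CC075F1 replicate 1, and the matched medians differed by at most 610 UMIs.

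**Figure D1:**
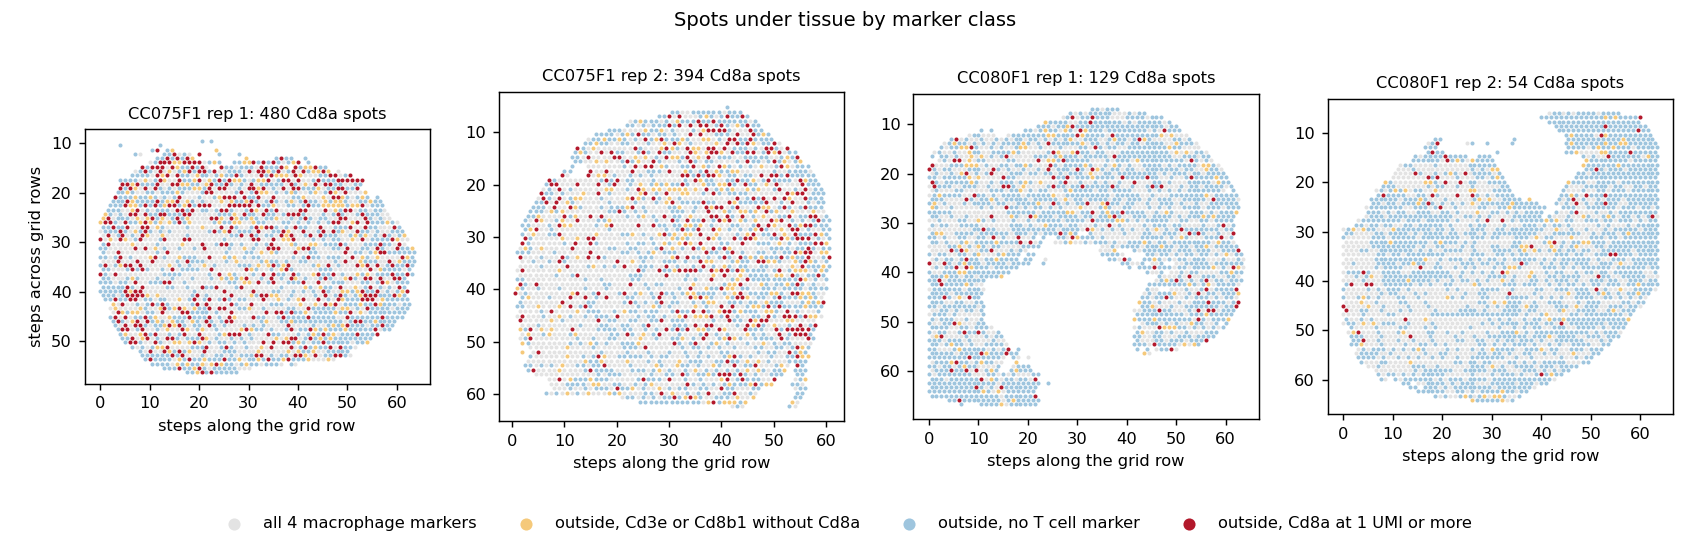
Position of every spot under tissue in the 4 sections on the Visium grid, in steps between neighbouring spots along a row and across rows, colored by marker class. The 480 and 394 positive spots of the CC075F1 sections are spread over most of the tissue, whereas CC080F1 has 129 and 54.

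Other T cell transcripts were checked in the positive spots against the Cd8a label. Cd8b1, the partner chain of CD8, was present in 20% and 29.4% of the positive spots of CC075F1 and in 6.98% and 1.85% of those of CC080F1. Cd3g, a CD3 chain that the rule did not use, was present in 33.5%, 46.9%, 14.7% and 20.4% of positive spots, in the order CC075F1 replicates 1 and 2 and CC080F1 replicates 1 and 2, which is kept throughout. In the matched negative spots it was present in 26.5%, 20.8%, 8.31% and 5.56%. Cd4 was present in at most 2.92% of positive spots. Each of these transcripts was thus missing from most positive spots at this depth, and Cd3g was present in a share of the negative spots.

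The members differed in which macrophage marker was missing. In CC075F1 the missing marker was mostly Itgam, at 0 in 436 of 480 and 310 of 394 positive spots, while Cxcl9 was at 0 in 5 and 10 of them. In CC080F1 replicate 1, Cxcl9 was the marker most often missing, at 0 in 81 of 129 positive spots. CC080F1 replicate 2 lay between, with Itgam at 0 in 40 and Cxcl9 at 0 in 10 of 54. Most positive spots still held 3 of the 4 markers, namely 375, 318, 84 and 37 spots, and 3 spots in all held none. Cxcl9, described without a test because the rule used it, was at 369, 344, 29.6 and 221 CPM in the positive sums and at 299, 238, 30.5 and 67.3 CPM in the matched negative sums.

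The spots just inside and just outside the Cd8a threshold were set side by side, again without a test. The summed level of 20 T cell receptor and coreceptor genes was 123, 143, 61.3 and 117 CPM in spots with 1 Cd8a UMI and 162, 201, 132 and 127 CPM in spots with 2 or more. In spots without Cd8a that held Cd3e or Cd8b1 it was 126, 120, 68.6 and 125 CPM, near the level at 1 UMI. Matched spots with none of the 3 genes had 109, 71.9, 45.3 and 56.9 CPM. The summed level of 11 hypoxia genes ran the other way, highest in the matched negative spots at 3379, 3493, 2896 and 3818 CPM and lowest at 2 or more Cd8a UMIs at 2817, 2482, 2246 and 2236 CPM.

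To ask what else differed where Cd8a was found, UMIs were summed over the positive and over the matched negative spots of each section, and the 4 pairs of sums were tested with the section as a block. Of the lists tested, the T cell receptor genes had the most calls among the higher genes (11 of 20), with 4 of 12 vessel genes and 3 of 10 NK genes. Among the lower genes were 10 of 11 hypoxia genes and 4 of 4 erythrocyte genes. Of 13276 genes tested, 268 (2.02%) passed an edgeR adjusted p of 0.05, 104 of them higher (0.783%) and 164 lower (1.24%). The direction was the same in all 4 sections for 96 of the 104 and 142 of the 164, against 16.8% of all tested genes higher and 5.43% lower in every section. The calls were made on these same sections, so this agreement follows in part from the calling and is no separate support. Without CC075F1 replicate 2 the count was 62, and without CC080F1 replicate 2 it was 162. With spots thinned to 10000 UMIs it was 96, and by DESeq2's Wald test it was 61, with 40 lower and 21 higher. Scaling by library size alone gave 198 higher and 90 lower, with the median over all genes at 0.0466 on the log2 scale.

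Genes of the T cell receptor complex rose together. Of 20 receptor and coreceptor genes, 11 passed the test, all higher, where 0.783% of all genes did, and the list's median log2 fold change was 0.72 against -0.00156 over all genes. Negative spots were chosen to lack Cd3e and Cd8b1 as well as Cd8a, which by itself selects against T cell genes in them. How much of the gap this rule makes was not tested. Cd3g stood at 14.3, 19.2, 6.01 and 6.81 CPM in the positive sums and at 10.5, 6.86, 2.75 and 1.83 CPM in the matched negative sums. That is a log2 fold change of 0.97 ± 0.14 (SE from the edgeR fit to 4 paired sections, edgeR adjusted p = 9.15e-05). The fit shares information on spread across genes, so this SE is not the SE of the 4 section values. The same holds for every ± given with a log2 fold change or an interaction. Levels differed more between strains than between classes, so both positive sums of CC080F1 lay below both negative sums of CC075F1, but the positive sum was the higher in every section. The gene lies at chr9:44969572-44980431 (GRCm38), next to Cd3d and Cd3e.

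The constant regions of the receptor chains moved likewise. Trac, the alpha constant region, was at 11.5, 14.95, 7.12 and 9.08 CPM against 10.3, 6.21, 3.26 and 2.28 CPM (log2 fold change 0.79 ± 0.16, edgeR adjusted p = 0.00423). Trbc2, a beta constant region, was at 18.9, 24.7, 6.23 and 13.6 CPM against 17.6, 9.51, 3.76 and 4.17 CPM (0.72 ± 0.15, edgeR adjusted p = 0.00423). The gap was small in CC075F1 replicate 1 for both genes. Trbc1 rose by 0.64 ± 0.14 (edgeR adjusted p = 0.0071), and because it is a near copy of Trbc2 the split of reads between them is uncertain. The adhesion receptor Cd2 (0.96 ± 0.22), the inhibitory receptor Cd5 (1.33 ± 0.35, on 3.97 CPM at most), the adaptors Lat and Sh2d2a, the kinase Lck, Cd3d and Thy1 made up the rest of the called members. Cd4 was not called, with a log2 fold change of -0.14 ± 0.51. Without CC075F1 replicate 2 only Thy1 of the 20 was called, and the list median was 0.40. The count was 7 without either CC080F1 section, 3 with spots thinned to 10000 UMIs and 3 by DESeq2. With 3 other random draws of the negative spots it was 8, 10 and 8, and without depth matching 7. In those draws Lat was not called (edgeR adjusted p = 0.17, 0.0764 and 0.06). The edgeR adjusted p there was 0.232, 0.0374 and 0.183 for Cd5 and 0.0437, 0.0938 and 0.153 for Cd2.

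Genes shared by T and NK cells were among the clearest. Nkg7, a cytotoxic granule protein, was at 22.7, 40.9, 7.34 and 10.2 CPM in the positive sums and at 15.3, 18.2, 3.95 and 6.74 CPM in the matched negative sums (0.84 ± 0.09, edgeR adjusted p = 1.09e-06). It was called without CC075F1 replicate 2 as well (0.60, edgeR adjusted p = 0.0148). Ms4a4b, a membrane protein of T cells, was at 9.95, 14.6, 5.56 and 12.5 CPM against 6.79, 6.67, 2.85 and 6.17 CPM (0.84 ± 0.13, edgeR adjusted p = 9.75e-05, and 0.71 with 0.0563 without that section). The NK receptor genes Klrd1 (0.72 ± 0.13) and Klrc1 (1.01 ± 0.23), whose products pair as CD94 and NKG2A, and the cytokine receptor gene Il2rb (0.59 ± 0.11) were the 3 of 10 NK genes called, where 0.783% of all genes were called higher. Ncr1, which marks NK cells, was present in at most 3.70% of positive spots and in at most 5.74% of matched negative spots. NK and CD8 T cells share the called genes, and their parts in the result were not tested. None of the 3 was called without CC075F1 replicate 2 (values of 0.51, 0.93 and 0.47). Gimap1, a GTPase of lymphocytes, rose by 0.78 ± 0.16 (edgeR adjusted p = 0.00477), and without CC075F1 replicate 2 it was at 0.58 (edgeR adjusted p = 0.353).

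**Figure D2:**
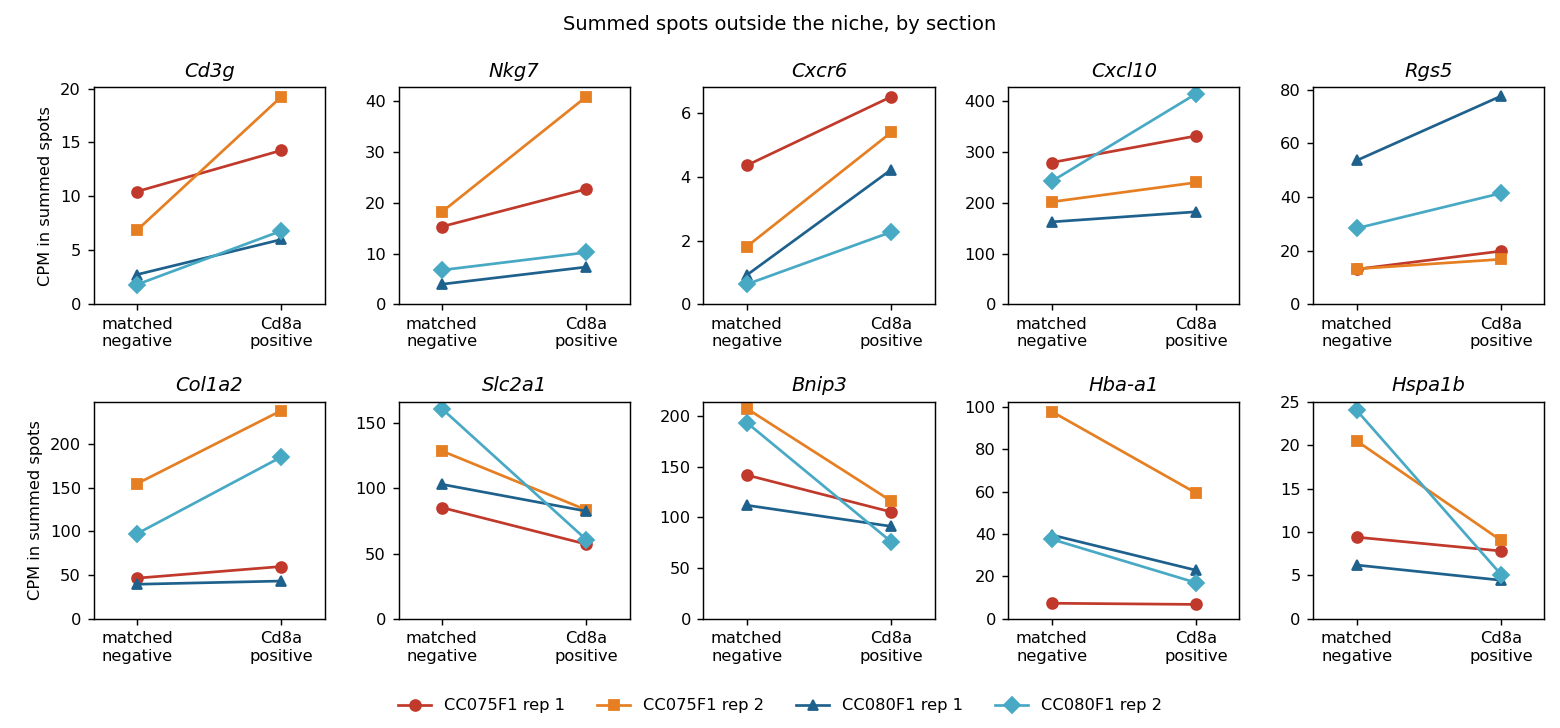
CPM in the summed matched negative and Cd8a positive spots outside the niche, for 10 genes, with a line for each of the 4 sections and no error bars because each point is a single sum. The 6 genes from Cd3g to Col1a2 go up and the 4 from Slc2a1 to Hspa1b go down in all 4 sections. For Cd3g, Nkg7, Slc2a1, Bnip3, Hba-a1 and Hspa1b the same direction in all 4 sections was a condition of being named.

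Effector genes moved in both directions. Of 15 cytotoxic genes, Nkg7 and Gzmb were called higher and Gzmd, Gzme and Gzmf lower, and the median was 0.24. Over all genes, 0.783% were called higher and 1.24% lower. Gzmb, the main granzyme of activated CD8 T cells, was at 3.57, 11.6, 1.34 and 14.8 CPM against 2.84, 5.95, 1.55 and 9.71 CPM (0.60 ± 0.15, edgeR adjusted p = 0.0342), higher in 3 of 4 sections. That call was lost without CC075F1 replicate 2 (0.33, edgeR adjusted p = 0.857), without CC080F1 replicate 2 (0.62, edgeR adjusted p = 0.102), in 1 of 3 other draws of the negative spots and by DESeq2 (adjusted p = 0.848). Ifng, the IFN-γ gene, was at 3.57, 4.03, 0.890 and 2.84 CPM against 3.12, 1.17, 0.380 and 0.742 CPM but was not called (0.92 ± 0.27, edgeR adjusted p = 0.075). None of 9 checkpoint genes was called by edgeR, with Pdcd1 at 0.51 ± 0.17 and Ctla4 at 0.82 ± 0.34, nor was any of 6 regulatory T cell genes. At an unadjusted p under 0.05 there were 3 and 1 of them, and DESeq2 called 0 of either list.

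The lower granzymes form a cluster of near-identical genes on chromosome 14, so reads may be split among them. Gzmf was at 1.72, 21.7, 3.11 and 57.9 CPM in the positive sums and at 10.1, 56.2, 2.25 and 54.4 CPM in the matched negative sums (-1.19 ± 0.17, edgeR adjusted p = 6.59e-05). Gzmg, outside the list and added after its values were seen, was at 1.72, 15.2, 0.890 and 28.9 CPM against 10.6, 42.3, 0.253 and 34.0 CPM. For Gzmf only the CC075F1 sections were lower, and for Gzmf and Gzmd the difference between strains was itself called (interaction -1.67 ± 0.23 for Gzmf, edgeR adjusted p = 0.000404, and -1.32 ± 0.24 for Gzmd, edgeR adjusted p = 0.0167). With 3 other random draws of the negative spots the interaction of Gzmf was -0.71, -1.18 and -0.45 (edgeR adjusted p = 1.0, 0.0063 and 1.0) and that of Gzmd -0.55, -1.17 and -0.29 (edgeR adjusted p = 1.0, 0.458 and 1.0), and without depth matching neither was called (edgeR adjusted p = 0.177 and 0.693). The Gzmd interaction was also lost without CC075F1 replicate 2 (edgeR adjusted p = 0.592) or CC080F1 replicate 2 (edgeR adjusted p = 1.0). In the matched negative spots of CC075F1 replicate 1, 63.0% of the Gzmf UMIs lay in 1 spot, and in replicate 2 33.4% did. In those draws the log2 fold change of Gzmf over the 4 sections lay between -0.58 and -1.14. Without CC075F1 replicate 2 it was -0.67 (edgeR adjusted p = 0.518), and with spots required to hold Cd3e as well it was 0.94 (edgeR adjusted p = 0.0106).

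**Figure D3:**
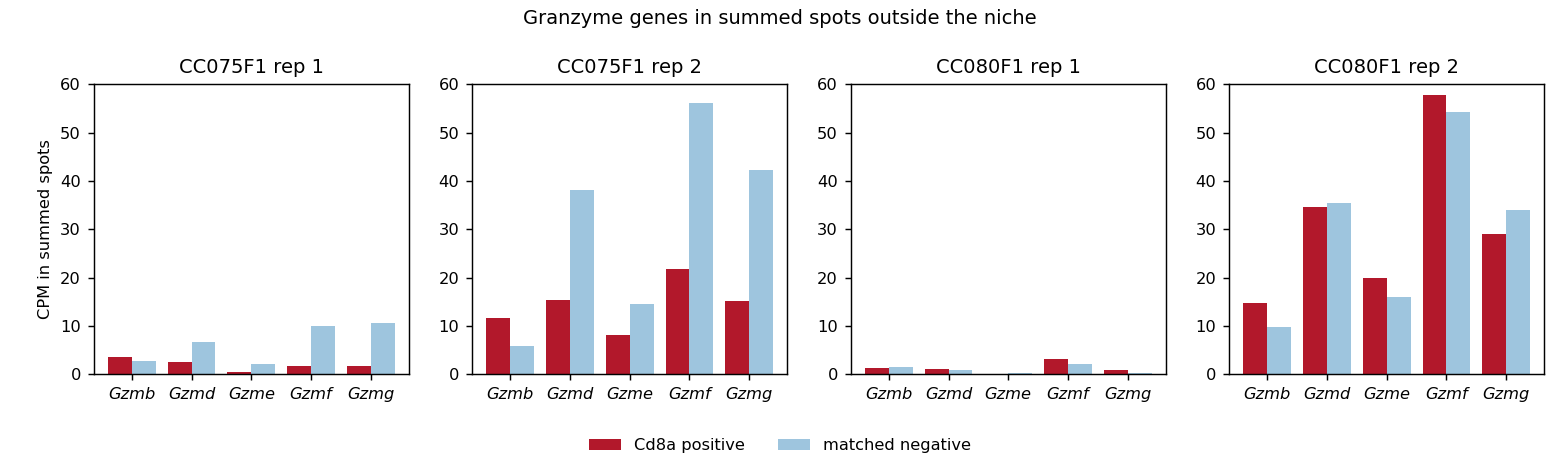
CPM of 5 granzyme genes in the summed Cd8a positive and matched negative spots of each section, 1 bar per sum. Gzmd to Gzmg are lower in the positive bars of both CC075F1 sections, whereas in CC080F1 replicate 2 Gzmf is at 57.9 against 54.4 CPM.

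Chemokine receptors and the IFN-γ response came next. Cxcr6, a receptor of resident effector T cells, was at 6.52, 5.40, 4.23 and 2.27 CPM in the positive sums against 4.36, 1.81, 0.917 and 0.628 CPM (1.17 ± 0.22, edgeR adjusted p = 0.00194). Xcl1, a chemokine of activated T and NK cells that attracts cross-presenting dendritic cells, rose by 0.75 ± 0.18 (edgeR adjusted p = 0.0184). Cxcl10, whose product attracts T cells, was at 332, 240, 182 and 415 CPM against 280, 202, 163 and 243 CPM, a rise of 0.28 ± 0.05 (edgeR adjusted p = 0.00151). These were the 3 called genes of 11 T cell chemokine and receptor genes, where 0.783% of all genes were called higher. Without CC075F1 replicate 2 Cxcl10 alone was called, with Cxcr6 at 1.03.

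Of 24 IFN-γ response genes, 5 were called, all higher, where 0.783% of all genes were. The list median was 0.15 against -0.00156 over all genes. Among the 5 were the GTPases Gbp2 (0.22 ± 0.05), Gbp7 (0.28 ± 0.06), Igtp (0.29 ± 0.06) and Iigp1 (0.36 ± 0.08). Iigp1 stood at 77.2, 41.1, 25.8 and 64.1 CPM against 65.4, 29.8, 22.9 and 26.4 CPM, so that the gap was widest in CC080F1 replicate 2. The count was 1 without CC075F1 replicate 2, 0 by DESeq2's Wald test and 11 with library size alone. None of 17 MHC class I genes passed the edgeR test (median 0.06, 4 at an unadjusted p under 0.05, 0 by DESeq2), and of 10 MHC class II genes only Ctss, a protease of antigen processing, did (0.17 ± 0.04, and 0.18 with an edgeR adjusted p of 0.12 without CC075F1 replicate 2). Cd274, which encodes PD-L1, was at 8.03, 6.31, 6.23 and 6.24 CPM against 8.31, 7.44, 7.59 and 7.31 CPM and was not called (-0.22 ± 0.12, edgeR adjusted p = 0.532).

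A share of the vessel and matrix genes was called in the positive spots. Of 12 endothelial and pericyte genes, 4 were called higher, where 0.783% of all genes were. All 12 had a positive log2 fold change, with a median of 0.38 against -0.00156 over all genes. Rgs5, a pericyte gene, was at 19.8, 16.8, 77.6 and 41.4 CPM in the positive sums and at 13.1, 13.2, 53.6 and 28.3 CPM in the matched negative sums (0.46 ± 0.07, edgeR adjusted p = 6.12e-05). Plvap, a protein of fenestrated endothelium, was at 35.7, 24.9, 58.5 and 45.9 CPM against 26.2, 19.5, 46.7 and 25.1 CPM (0.38 ± 0.07, edgeR adjusted p = 0.000583). Egfl7 (0.42 ± 0.08) and Emcn (0.42 ± 0.09), both of endothelium, were also called, while Pecam1 (0.30 ± 0.09, edgeR adjusted p = 0.0737) and Cdh5 (0.27 ± 0.07, edgeR adjusted p = 0.0582) were not. When CC075F1 replicate 2 was left out, 3 of the 12 were called and the Rgs5 value was 0.53. With library size alone 9 were called, and by DESeq2 2.

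Among 14 fibroblast genes, Col1a1 (0.41 ± 0.05), Col1a2 (0.49 ± 0.06) and Sparc (0.22 ± 0.04), which build or bind collagen matrix, were called higher and the proteoglycan gene Dcn lower (-0.15 ± 0.04). The shares over all genes were 0.783% higher and 1.24% lower. Col1a2 was at 59.7, 238, 43.2 and 185 CPM in the positive sums against 46.5, 154, 39.5 and 97.2 CPM. Both replicate 2 sections held more collagen transcripts than the replicate 1 sections in either class. Spon1, a secreted matrix protein, was at 5.56, 9.88, 4.23 and 11.3 CPM against 3.88, 5.44, 3.32 and 2.46 CPM (0.77 ± 0.17, edgeR adjusted p = 0.0133). Leaving out CC075F1 replicate 2, the calls of Spon1 (0.77, edgeR adjusted p = 0.318), Sparc (0.20, edgeR adjusted p = 0.0563) and Dcn (-0.11, edgeR adjusted p = 0.611) were lost, and those of Col1a1 and Col1a2 were kept.

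Hypoxia genes were lower in the positive spots. Of 11 tested, 10 were called lower, where 1.24% of all genes were, and the median was -0.38. Slc2a1, the glucose transporter GLUT1, was at 57.2, 83.5, 82.5 and 60.7 CPM in the positive sums and at 85.3, 129, 103 and 161 CPM in the matched negative sums (-0.68 ± 0.07, edgeR adjusted p = 6.86e-07). No positive sum reached any of the negative sums. Bnip3, a mitophagy receptor, was at 105, 116, 91.2 and 76.0 CPM against 142, 207, 112 and 194 CPM (-0.71 ± 0.08, edgeR adjusted p = 1.09e-06), and Ankrd37 at 26.3, 30.2, 28.0 and 26.1 CPM against 37.7, 49.5, 33.2 and 56.9 CPM (-0.66 ± 0.07). The gap was widest in CC080F1 replicate 2 for all 3 genes. DESeq2 did not call Slc2a1 (adjusted p = 0.146) or Bnip3 (adjusted p = 0.189) but called Ankrd37 (adjusted p = 0.000455), and it called 7 genes of the list. Vegfa (-0.34 ± 0.05), which drives vessel growth, the stress gene Ndrg1 (-0.52 ± 0.06), the glycolysis enzymes Pgk1 (-0.33 ± 0.04) and Ldha (-0.30 ± 0.05), the hydroxylases Egln3 and P4ha1 and the kinase Pdk1 were the others called. Adm was not, with 5.11 CPM at most and -0.31 ± 0.30.

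Car9, the HIF target carbonic anhydrase 9, was named by the rule of size and not by the list. It was at 5.90, 2.86, 4.23 and 3.97 CPM against 9.42, 5.76, 4.27 and 8.22 CPM (-0.75 ± 0.16, edgeR adjusted p = 0.00659), with no gap to speak of in CC080F1 replicate 1, and was not called without CC075F1 replicate 2 (-0.60, edgeR adjusted p = 0.262). The hypoxia list kept 8 called members without CC075F1 replicate 2, and between 7 and 10 under the other settings tried for this comparison except the fit without the section block, which called no gene at all. Without that section Egln3 (-0.40, edgeR adjusted p = 0.0593) and Pdk1 (-0.22, edgeR adjusted p = 0.491) were the calls lost.

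The promoters of these hypoxia genes were read for the core letters that HIF binds, ACGTG on either strand (CACGT in the printed strand). Of the 10 called, 9 had an entry in the RefSeq promoter table and 8 of these held the letters in the 250 bases before the start, as did 24.6% of the 10309 tested genes with an entry. The 2 spellings overlap where CACGTG occurs. The list was made of genes known to respond to hypoxia, so this share follows in part from how the list was chosen and is no result of the sections. A match describes letters only and does not show a bound site. Windows of up to 29 bases around 1 match per gene are shown 5′ to 3′ on the strand of the gene, from RefSeq on GRCm38.p6, with the match in capitals.
Slc2a1, chr4:119108697-119108725, plus strand: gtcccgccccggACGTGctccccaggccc
Bnip3, chr7:138909597-138909625, minus strand: cgcacgcgccgcACGTGccacacgctccc
Ankrd37, chr8:46000072-46000100, minus strand: cccagcagtACGTGcctagctcggctcgc
Pgk1, chrX:106186938-106186966, plus strand: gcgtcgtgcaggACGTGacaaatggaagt
Ldha, chr7:46845745-46845773, plus strand: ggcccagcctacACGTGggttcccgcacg
Vegfa, chr17:46025358-46025386, minus strand: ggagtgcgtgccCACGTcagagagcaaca
P4ha1, chr10:59323268-59323295, plus strand: tgtgacagagcgCACGTagcgagggctg
Egln3, chr12:54204087-54204115, minus strand: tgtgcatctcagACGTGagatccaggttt

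The 4 hemoglobin genes tested were also called lower, where 1.24% of all genes were. Hba-a1 was at 6.79, 59.4, 22.9 and 17.0 CPM in the positive sums and at 7.34, 97.9, 39.6 and 37.6 CPM in the matched negative sums (-0.77 ± 0.07, edgeR adjusted p = 9.8e-08), with a small gap in CC075F1 replicate 1. Hba-a2 (-0.91 ± 0.11), Hbb-bs (-0.75 ± 0.09) and Hbb-bt (-0.69 ± 0.15) completed the 4 of 4 erythrocyte genes called, and reads of these near copies may be split. The 2 alpha chain genes were called without CC075F1 replicate 2 as well. DESeq2 called 2 of the 4 and did not call Hbb-bs (adjusted p = 0.924) or Hbb-bt (adjusted p = 0.675). By edgeR the count was 2 with spots thinned to 10000 UMIs and 0 in spots with Cd8a and Cd3e. The rule of size also named Hspa1a and Hspa1b, near-identical heat shock genes side by side on chromosome 17, which fell by 1.12 and 0.97 on the log2 scale. Hspa1b was at 7.82, 9.04, 4.45 and 5.11 CPM against 9.42, 20.5, 6.20 and 24.0 CPM (edgeR adjusted p = 0.000144), and its fall lay mostly in the replicate 2 sections. Ier3, an immediate early gene, fell by 0.68 ± 0.09 and Chac1, a gene of the unfolded protein and amino acid stress response, by 0.66 ± 0.10. Without CC075F1 replicate 2, Hspa1a (-0.73, edgeR adjusted p = 0.386), Hspa1b (-0.68, edgeR adjusted p = 0.167) and Chac1 (-0.56, edgeR adjusted p = 0.135) were no longer called.

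Macrophage genes other than those of the rule were split. Of 20, Plac8 (0.53 ± 0.08), a gene of recruited monocytes, and Aif1 (0.19 ± 0.04) were called higher, and Arg1 (-0.45 ± 0.08) and Spp1 (-0.36 ± 0.05), which mark a hypoxia-associated macrophage state, lower. Over all genes, 0.783% were called higher and 1.24% lower. Spp1 was at 125, 172, 146 and 294 CPM in the positive sums and at 131, 237, 168 and 402 CPM in the matched negative sums, with the smallest gap in CC075F1 replicate 1. By edgeR no gene was called of 10 for cDC1, 7 for mature dendritic cells, 5 for cDC2 and pDC, 7 for neutrophils, 3 for epithelium, 3 for keratinocytes, 3 for adipocytes and 7 for naive and memory T cells. DESeq2 called 0 of these as well, and an unadjusted edgeR p was under 0.05 for 2 of the cDC1, 2 of the mature dendritic cell, 1 of the cDC2 and pDC, 2 of the adipocyte and 2 of the naive and memory genes. Cell cycle genes had a median of 0.05 with Birc5 alone called (0.15 ± 0.04). Of 12 adhesion and migration genes Itgal, Cd52 and Rac2 were higher, and of 13 T cell cytokine and receptor genes Il2rb was. Itgal was not called in 3 other draws of the negative spots (edgeR adjusted p = 0.222, 0.0925 and 0.101). It was also not called with 20 strata (0.232) or without depth matching (0.0837). With CC075F1 replicate 2 left out, the calls of Aif1 (0.15, edgeR adjusted p = 0.395), Birc5 (0.13, edgeR adjusted p = 0.48), Itgal (0.19, edgeR adjusted p = 0.718), Cd52 (0.11, edgeR adjusted p = 0.572) and Rac2 (0.24, edgeR adjusted p = 0.105) were lost, and those of Plac8, Arg1 and Spp1 were kept. Tnnt3 of 10 muscle genes and Igkc of 4 B and plasma cell genes were lower, and both turned positive without CC075F1 replicate 2 (0.14 and 0.79, edgeR adjusted p = 0.974 and 0.804).

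**Figure D4:**
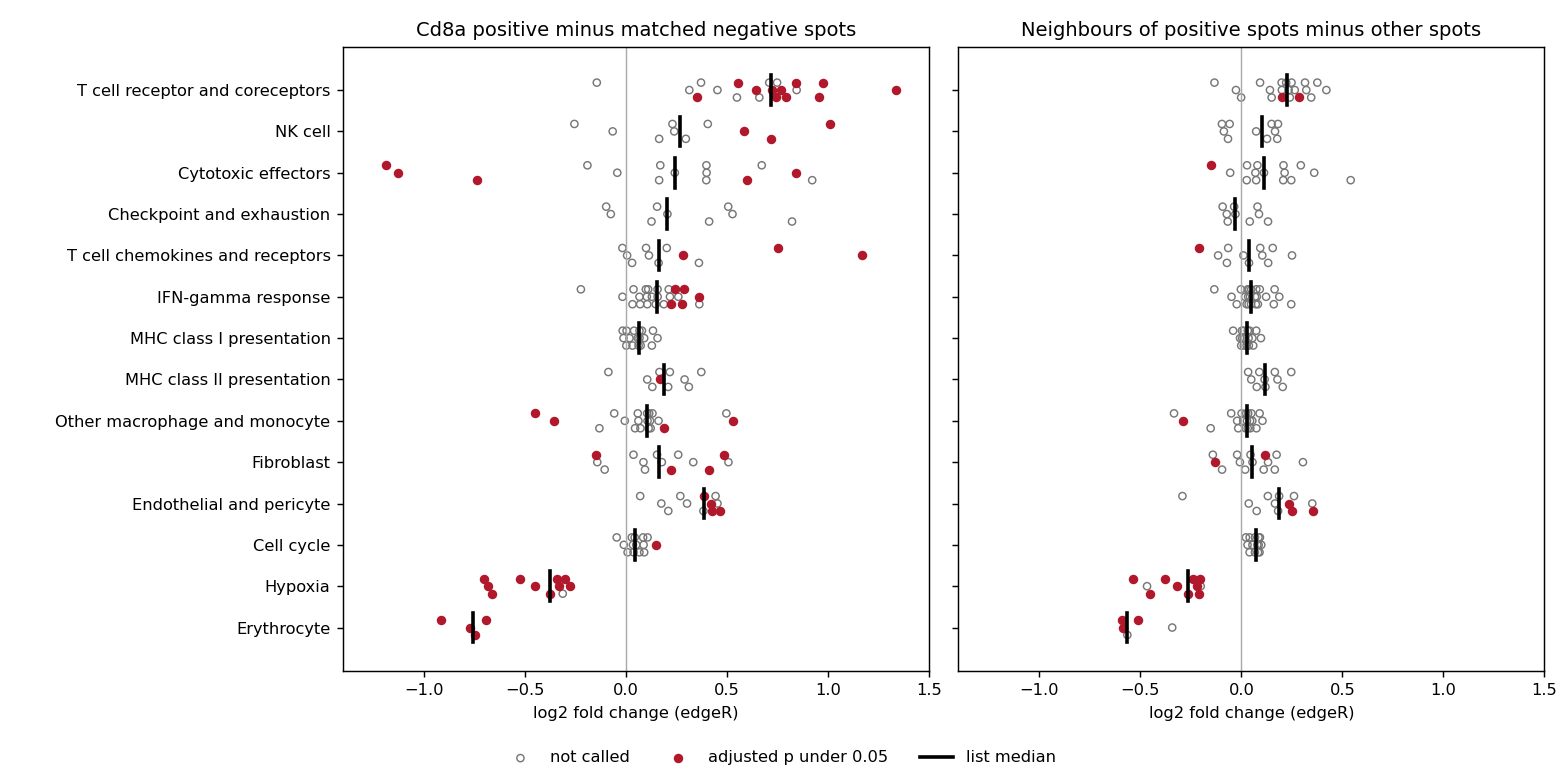
Log2 fold change of each tested gene of 14 lists (horizontal axis, edgeR; points are spread vertically within a list for legibility), for Cd8a positive minus matched negative spots (left) and for neighbours of positive spots minus other spots (right), with called genes in red and the list median as a bar; Igkc and the muscle genes are not among these lists. The medians are 0.72 on the left and 0.23 on the right for T cell receptor genes, and -0.38 and -0.26 for hypoxia genes.

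Spot quality and position were compared at matched depth, with each test two-sided and exact over sign flips of the 4 sections, for which 0.13 is the smallest p possible. Positive spots held 77.5, 172, 82.2 and 183 more genes per spot than matched negative spots, a mean difference of 129 ± 56.7 (SD, n = 4, exact p = 0.13). The mitochondrial share of UMIs differed by at most 0.0976 percentage points in 3 sections and was 0.299 points higher in the positive spots of CC080F1 replicate 2 (mean difference 0.0496 ± 0.172, SD, n = 4, exact p = 0.875). The distance to the nearest position off the tissue differed by -0.890, 0.553, 0.0565 and -1.46 grid steps, with no common direction (mean -0.435 ± 0.908, SD, n = 4, exact p = 0.5). The part of these differences in the gene results was not tested.

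To ask how far the pattern reached beyond the positive spots, every spot with a positive spot among its 6 grid neighbours was eligible for a comparison with spots that had none, again at matched depth and within section. A spot enters here by its neighbours, so its own Cd8a was open to a test. Neighbours numbered 1781 and 1636 in CC075F1, where they made up 65.7% and 49.9% of spots, and 667 and 292 in CC080F1, at 23.9% and 9.20%. Matching kept 904, 1319, 667 and 292 of these, so that many neighbours in CC075F1 replicate 1 did not enter the sums. Of the positive spots themselves, 70.8%, 49.0%, 21.7% and 18.5% had a positive neighbour, against 69.6%, 50.2%, 22.5% and 6.85% of the negative spots.

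The neighbours' own Cd8a was little raised. It was at 12.4, 7.04, 2.57 and 2.51 CPM in the neighbour sums and at 11.7, 6.22, 2.35 and 0.964 CPM in the others (0.17 ± 0.10, edgeR adjusted p = 0.59). The odds of holding Cd8a, taken over strata of spot depth, were 1.13, 1.03, 1.10 and 2.65 times those of other spots (mean 1.36 ± 0.45, SD, n = 4, exact p = 0.13 over sign flips). The mean was 1.09 without CC080F1 replicate 2, the section with the fewest positive spots.

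Of 14591 genes tested around the positive spots, 187 were called (1.28%), 29 higher (0.199%) and 158 lower (1.08%). The direction held in all 4 sections for 28 of the 29 and 142 of the 158, against 17.0% of all tested genes higher and 5.66% lower in every section. Here too the calls come from the same sections, so the agreement is no separate support. Hypoxia genes were lower again, 9 of 11 with a median of -0.26. Slc2a1 was at 67.2, 96.3, 86.2 and 77.4 CPM in the neighbours and at 91.4, 124, 101 and 132 CPM in the others (-0.45 ± 0.05, edgeR adjusted p = 3.39e-05), and Bnip3 fell by 0.53 ± 0.05 (edgeR adjusted p = 9.33e-06), both in all 4 sections. Hspa1a (-1.15 ± 0.11), Hspa1b (-0.78 ± 0.09), Hba-a1 (-0.59 ± 0.12) and the macrophage elastase gene Mmp12 (-0.61 ± 0.11) were lower, and Igkc was lower through CC075F1 replicate 2 (-1.78 ± 0.25, and 0.90 without that section). Leaving out that section, the calls of Hba-a1 (-0.67, edgeR adjusted p = 0.398), Mmp12 (-0.67, 0.154) and Hspa1b (-0.73, 0.0735) were lost. DESeq2 called none of these. Neither Hba-a1 nor Mmp12 was called with spots within 3 steps of the edge left out. Mmp12 was also not called with 20 strata (edgeR adjusted p = 0.188) or in other draws (0.124 and 0.147, against 0.0221 in a further draw).

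Of the 5 genes named on the higher side, Kdr and Epas1 are known from endothelium. Kdr, which encodes VEGF receptor 2, was at 13.3, 8.26, 26.5 and 22.9 CPM in the neighbours and at 8.87, 6.18, 23.9 and 15.04 CPM in the others (0.35 ± 0.06, edgeR adjusted p = 0.00538). Tmem204 (0.36 ± 0.08), the basement membrane collagen Col15a1 (0.32 ± 0.06) and the HIF gene Epas1 (0.31 ± 0.06) rose as well. All 4 calls were lost without CC075F1 replicate 1 (edgeR adjusted p = 0.095 for Kdr and 0.106 for Epas1) and without CC075F1 replicate 2 (edgeR adjusted p = 0.136 and 0.0691), and with either left out 1 of 12 vessel genes was called against 3 with all sections. Among T cell receptor genes only Trbc2 (0.29 ± 0.06, edgeR adjusted p = 0.0118) and Thy1 (0.20 ± 0.05) of 20 were called. That count was 0 without CC075F1 replicate 1, without CC075F1 replicate 2, with 20 strata, in 1 of 3 other draws and by DESeq2. None of 24 IFN-γ response genes was called by edgeR (median 0.05, 5 at an unadjusted p under 0.05, 0 by DESeq2).

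The neighbour comparison moved with the sections and spots used. The count was 40 without CC075F1 replicate 2, 73 without CC075F1 replicate 1, 284 without CC080F1 replicate 2 and 68 with spots within 3 steps of the edge left out. Since neighbours include spots that are positive themselves, it was also run on negative spots alone, where 216 genes were called, 9 of 11 hypoxia genes and 2 of 12 vessel genes among them, but no T cell receptor gene. Negative spots lack Cd8a, Cd3e and Cd8b1 by the rule, so T cell genes were selected against on both sides. Thy1 was at 0.25 and Trbc2 at 0.26 in that run, against 0.20 and 0.29 with all spots. Hypoxia kept 5 called genes without CC075F1 replicate 2. Library size scaling alone turned the split to 114 higher and 108 lower.

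Levels by distance from the nearest positive spot are given as a description. The summed T cell receptor genes went from 134, 155, 67.2 and 118 CPM in the positive spots to 79.0, 76.2, 52.2 and 82.2 CPM at 3 steps, and the vessel genes from 223, 181, 372 and 334 to 99.6, 128, 319 and 254 CPM. The hypoxia genes went from 2965, 2737, 2540 and 2642 to 3871, 3757, 2847 and 3147 CPM over the same steps. CC080F1 replicate 1 changed least for each list. The far end of the CC075F1 curves rests on 22 and 26 spots.

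**Figure D5:**
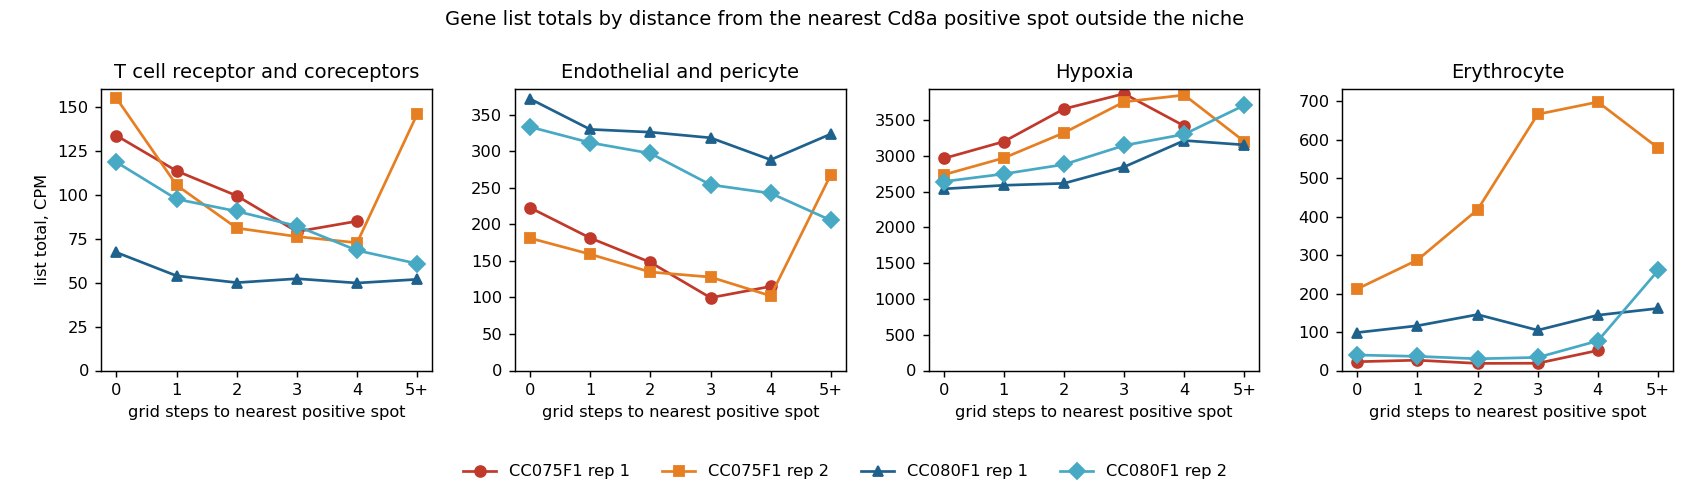
Summed CPM of 4 gene lists (20 T cell receptor, 12 vessel, 11 hypoxia and 6 erythrocyte genes) by grid steps from the nearest Cd8a positive spot outside the niche, over all spots under tissue, with 5 and more steps pooled and bins under 20 spots left out. T cell receptor and vessel totals decline and hypoxia totals rise over the first 3 steps in most sections.

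Whether the pattern was particular to spots outside the macrophage niche was tested against the Cd8a spots that held all 4 markers, each class with its own matched negative spots. Only 2 of 13363 genes (0.015%) had a difference between classes that differed outside from inside, Ighg2c lower and Myh7 higher outside (0.00748% each way), at means of 3.45 and 0.556 CPM. At an unadjusted p under 0.05 there were 376. The count was 0 without CC075F1 replicate 2, which held nearly all Ighg2c UMIs, and 1 without CC080F1 replicate 2. Inside the niche, Slc2a1 was at 62.8, 70.3, 68.3 and 62.1 CPM in Cd8a spots and at 99.1, 134, 87.1 and 87.0 CPM in their negatives, and the difference outside minus inside was -0.12 ± 0.19. It was 0.13 ± 0.19 for Cd3g, 0.09 ± 0.12 for Nkg7, 0.08 ± 0.13 for Rgs5 and -0.26 ± 0.19 for Col1a2. These SEs leave room for differences of about the size of the weaker effects above, so the classes are not shown to act alike. The list medians of this difference were 0.10 for T cell receptor genes, -0.06 for hypoxia genes and 0.09 for vessel genes.

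Between strains, the difference of positive from negative spots itself differed for 4 of 13276 genes (0.0301%), the granzymes Gzmd and Gzmf and the muscle genes Acta1 and Myh1, and for none of the T cell receptor, hypoxia or vessel genes by edgeR, of which 1, 1 and 0 had an unadjusted p under 0.05. The strain difference in that contrast was 0.08 ± 0.16 for Slc2a1, -0.39 ± 0.38 for Cd3g and -0.08 ± 0.14 for Rgs5. The count was 11 without CC075F1 replicate 1, 38 without CC080F1 replicate 1 and 13 without CC080F1 replicate 2. In simulated data of this design, 69% of 2-fold and 41% of 1.5-fold differences between strains were called.

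Positive spots alone were then compared between strains, 2 sections against 2. By edgeR 4 of 12411 genes (0.0322%) were called, all lower in CC075F1, and 630 had an unadjusted p under 0.05. Ifi202b, which interferon induces, was without a UMI in the sums of both CC075F1 sections and at 33.1 and 59.0 CPM in CC080F1, at least 233-fold lower when 3 UMIs per library are set as the floor. Cbr2, a carbonyl reductase gene of resident macrophages, was at 2.93 and 1.88 CPM against 25.4 and 30.1 CPM (-3.22 ± 0.30, edgeR adjusted p = 0.00701). F13a1, a resident macrophage gene, was at 2.40 and 3.25 CPM against 24.5 and 32.3 CPM (-2.96 ± 0.37, edgeR adjusted p = 0.0495), and the predicted gene Gm10260 at 0.932 and 0.585 CPM against 10.4 and 19.8 CPM. The strains did not overlap for any of these genes, which goes with their having been picked by this same test and is no further result. The median log2 fold change was 1.54 for 18 T cell receptor genes and 1.60 for 10 MHC class II genes, with none called by edgeR, although 11 and 6 had an unadjusted p under 0.05. At 2 against 2 sections, 19% of simulated 2-fold changes were called. Leaving out CC075F1 replicate 1 gave 1163 calls, and leaving out CC080F1 replicate 2, CC080F1 replicate 1 or CC075F1 replicate 2 gave 123, 40 and 12, so the count depends on the sections used.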

How the data were processed

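Visium spatial transcriptomes of 4 fresh frozen MC38 sections were used, 2 per F1 strain. The deposited files hold UMI counts per gene and spot as the authors made them with Space Ranger 1.3.1 on GRCm38 (GENCODE vM23), for 32285 genes, unnormalised and with spots under tissue only. Gene positions come from GENCODE vM21 on the same build, which lacks 127 of the genes. Spots are small regions and not cells. No doublet caller was run. The slide or run of each section is not given in the sources used here, so a batch that follows strain cannot be told apart from it. The sections share 1666 barcodes, which come from a fixed list of positions.

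The spot classes, the 27 gene lists and the tests were chosen with earlier results of these data known. Positive spots were matched (all but those of CC075F1 replicate 1, where 471 of 480 were), within section and among 10 strata of spot depth, to an equal number of negative spots per positive, up to 10 (1, 1, 7 and 10 in the 4 sections), drawn at random. UMIs were summed per class and section and tested with edgeR 4.0.16 in R 4.3.3 (TMM scaling, filterByExpr, quasi-likelihood F-test, Benjamini-Hochberg adjustment over all genes), with section as a block. Strain and niche differences are interaction terms, and positive spots were compared between strains without a block. CPM divide by the summed UMIs of the class, and all log2 fold changes are the fitted ones. Single values were tested by exact permutation over sign flips of the sections. The edgeR p-values rest on the spread between these 4 tumors with information on spread shared across genes. They therefore do not measure the spread of 1 gene alone. The niche test took the 4 sums of each tumor as separate values within the section block. Sign-flip p-values use the 4 section values alone. Genes were named if adjusted p was under 0.05, the direction was the same in all 4 sections and the mean was at least 5 CPM, taking the 10 largest changes each way (5 in the other comparisons, where the same direction was not required), together with called members of the lists and a few members that missed the threshold. Of list symbols, 4 were not in the tables (Cxcl11, Ccl19, Ccl21a and Ca9).

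On simulated counts of 13283 genes with 200 changed, the comparison of positive with negative spots called 72% of 1.5-fold and 95% of 2-fold changes, with 13 false among 180 calls. Between strains 3% and 19% were called on 12416 genes, and around positive spots 79% and 98% on 14591. Alternatives were DESeq2 1.42.0, other scalings, filters, strata, draws, spot definitions, thinning of spots to 10000 UMIs and leaving out each section. Intervals cover counting error only. Tables were handled with Python 3.11.15, pandas 2.3.3, numpy 2.4.6 and scipy 1.17.1, and figures drawn with matplotlib 3.10.9.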

Additional observations from a re-analysis of the deposited data

Results flagged for a closer look

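For 4 genes, the difference of positive from matched negative spots itself differed between the strains by edgeR's interaction test. Acta1, skeletal muscle actin, had an interaction of -1.88 (CC075F1 minus CC080F1, adjusted p = 0.000404), and Myh1, a fast muscle myosin, of -3.68 (adjusted p = 0.00275). In the positive spots of CC080F1 replicate 1, 19 of the 20 Myh1 UMIs and 39 of the 60 Acta1 UMIs lay in 1 spot. Without that section the Acta1 value was 3.84 (adjusted p = 0.947). The granzyme genes Gzmd (-1.32, adjusted p = 0.0167) and Gzmf (-1.67, adjusted p = 0.000404) were lower in the positive spots of CC075F1, where 1 matched negative spot of replicate 1 held 51 of 98 Gzmd UMIs and 92 of 146 Gzmf UMIs. With 3 other random draws of the negative spots the Gzmd interaction was called in 0 (-0.29 to -1.17, edgeR adjusted p = 0.458 to 1.0) and the Gzmf interaction in 1 (-0.45 to -1.18).

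Between spots outside and inside the macrophage niche, Ighg2c, an immunoglobulin constant region, had an interaction of -5.86 (edgeR adjusted p = 4.55e-05). In the matched negative spots of CC075F1 replicate 2, 699 of its 791 UMIs lay in 1 spot. Myh7, a slow muscle myosin, had an interaction of 4.50 (edgeR adjusted p = 0.0431) at a mean of 0.556 CPM. The part of single spots in these values was not tested further.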

How the results depend on the processing

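Of 440 values of the 20 genes named for the comparison of positive with negative spots, 367 kept direction and call, 72 kept direction only and 1 turned (Hba-a1, 0.259 in spots with Cd8a and Cd3e). For the 10 named around positive spots, 128 of 170 kept both and 2 turned, and for the 4 between strains 40 of 44 kept both. The cause of the changes below was not tested. Against 268 calls for positive minus negative spots there were 61 by DESeq2 (61 of the 268 kept), 0 without the section block (75 at an unadjusted p under 0.05 by edgeR), 424 with no filter, 144 for spots with Cd8a and Cd3e, 96 thinned to 10000 UMIs and 62 to 368 with a section left out. By strain (4 calls) there were 1 by DESeq2, 15 with no filter, 1 without depth matching and 5 to 38 with a section left out. By niche (2 calls) there were 0 by DESeq2 (134 at an unadjusted p under 0.05), 1 with 20 strata, 16 with no filter, 1 without depth matching, 0 with at most 1 spot per matched spot, 1 and 0 with other draws, and 0 to 3 with a section left out. Between strains (4 calls) there were 23 by DESeq2, 2 with equal spot numbers, 40 with library size alone, 150 with no filter, 2 with DESeq2 size factors and 12 to 1163 with a section left out. Around positive spots (187 calls) there were 74 by DESeq2, 68 over 3 steps from the edge, 390 with no filter, 318 without depth matching and 40 to 284 with a section left out.

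With the replicate number as a block between strains, 222 genes were called. Same-numbered sections correlated at 0.196 in their deviations, with 2 pairs, and share only a number.

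Turned values were, in spots with Cd8a and Cd3e, 0.461 for Gzmd, 1.06 for Gzme, 0.939 for Gzmf, 0.188 for Arg1 and 0.346 for Hbb-bt. Gzme was at 0.0174 in spots of at least 10000 UMIs and 0.144 thinned. Tnnt3 was at 0.505 over 3 steps from the edge, 0.102 in Ptprc spots, 0.0957 thinned and -0.749 to 0.136 with a section left out. Igkc was at 0.993 over 3 steps from the edge and -4.15 to 0.789 with a section left out, and around positive spots at 0.415 and at -2.10 to 0.897. Myh4 around positive spots was at 0.0764 with all 6 neighbours under tissue. The strain interaction of Acta1 was -1.93 to 3.84 with a section left out. Without depth matching the edge distance difference was 0.206 (-0.764 to -0.0933 with a section left out). The mitochondrial difference was -0.0818 without depth matching and -0.0336 to 0.0986 with a section left out. The difference in genes per spot was 111 to 146 and the Cd8a odds ratio 1.09 to 1.49 with a section left out. At 54 positive spots and 1763103 UMIs, CC080F1 replicate 2 limits genes under about 2 CPM to a few UMIs.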

Other observations

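The families below were picked after their values were seen and carry no test of the family. Of 14 glycolysis genes tested, 10 were called lower by edgeR in the Cd8a positive spots, where 1.24% of all genes were, with a median log2 fold change of -0.24. Around them 11 of 14 were called lower, where 1.08% of all genes were. Without CC075F1 replicate 2 these counts were 7 and 9. The hypoxia list above already holds the glycolysis enzymes Pgk1 and Ldha, so glycolysis is not a separate line of evidence. The metallothionein genes Mt1 (-0.52 ± 0.08) and Mt2 (-0.60 ± 0.08), which bind metals and respond to stress, were both lower in the positive spots. They were lower with CC075F1 replicate 2 left out too, but DESeq2 called 0 of them. Of 25 collagen genes 8 were higher, where 0.783% of all genes were, with a median of 0.11. The count was 4 of 24 without CC075F1 replicate 2 and 2 by DESeq2.

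Of 8 Gimap genes, GTPases of lymphocytes, 4 were higher, where 0.783% of all genes were, with a median of 0.56. The count was 0 by DESeq2 and 0 without CC075F1 replicate 2, where the edgeR median was 0.49. Of 77 ribosomal protein genes 25 were called lower, where 1.24% of all genes were, with a median of -0.13. That count was 14 with DESeq2 size factors, 1 with library size alone, 0 by DESeq2's Wald test and 0 without CC075F1 replicate 2, while the median lay between -0.13 and -0.08.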
